A study of Homo sapiens with 6 samples.

Results

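Transcript levels of 37 DNA repair genes were compared between parental LNCaP cells and an enzalutamide-resistant derivative. The genes were taken from a list of symbols covering homologous recombination, the Fanconi anemia pathway and mismatch repair. Their checkpoint kinases and poly(ADP-ribose) polymerases were included, and the list was chosen with earlier results of these data known. Each of the 37 had a row among the 35554 genes of the count table, and all 37 were among the 19711 genes that passed the filter on low counts. LNCaP is an established, androgen-dependent line of metastatic human prostate carcinoma, and enzalutamide is an inhibitor of the androgen receptor. The resistant line, LNCaP-enzaR, was selected from its parent under continuous enzalutamide and then kept on a lower concentration, so it is 1 line with 1 history of culture. RNA was collected at subconfluence from parental cells (n = 3) and from LNCaP-enzaR cells (n = 3), and the sources do not say whether the drug was present at harvest. The libraries are labelled as biological replicates of a line, and the sources name flasks plated in triplicate but no separate cultures, so p-values measure only the spread between these samples, which may be technical.

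Homologous recombination repairs a double-strand break by copying the sister chromatid. Broken ends are sensed and resected, the BRCA proteins prepare the single strand for pairing, and accessory factors drive strand exchange. The Fanconi pathway unhooks crosslinks between the strands of DNA by attaching ubiquitin to a pair of effector proteins, and it hands the resulting breaks to recombination. Mismatch repair corrects replication errors, and LNCaP is known as a mismatch repair-deficient line with unstable microsatellites. Many genes of recombination and of the Fanconi pathway are transcribed mainly in dividing cells, around S phase.

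Sequencing depth was similar among the libraries, between 77759122 and 98616465 counts, and no member had fewer than 141 counts in any library. Libraries of 1 line differed by more than counting noise in every pair (chi-square per degree of freedom 5.80 to 39.6), and LNCaP-enzaR library 1 lay farthest from the others of its line. FOXA1, a luminal prostate transcription factor, was at 438 to 441 CPM (counts scaled to 1000000 per library) in parental and 419 to 434 CPM in LNCaP-enzaR cells. The prostate factor HOXB13 fell from 536 to 542 CPM to 289 to 321 CPM. Among markers of other cell types, TP63 and KRT5 (basal epithelium) had at most 1 and 2 counts, PTPRC (leukocytes) at most 5 and PECAM1 (endothelium) at most 4 in any library, while COL1A1 (fibroblasts) was at 12.4 to 15.1 CPM in parental and 4.03 to 4.80 CPM in LNCaP-enzaR cells. DCN, also of fibroblasts, had 0, 1 and 0 counts in parental and 2, 20 and 7 in LNCaP-enzaR libraries. Proliferation markers differed strongly between the lines. Of 23 replication and mitotic markers, 22 fell past the threshold given below, as did 19.5% of all genes tested. The median log2 fold change of the 23 was -1.83. The remaining marker, CDK1, was lower too (log2 fold change -0.54) but below the fold limit. MKI67, a marker of cycling cells, fell from 209.7 ± 9.72 to 38.2 ± 2.15 CPM (SD, n = 3), and PCNA, the sliding clamp of the replication fork, from 257.8 ± 1.30 to 89.1 ± 2.86 CPM. The part of this difference in the results for the repair genes was not tested, and in bulk RNA fewer cycling cells and less transcript per cell cannot be told apart.

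Most of the repair genes were lower in LNCaP-enzaR cells. Genes were called where the adjusted p did not exceed 0.05 and the fold was 1.5 or more, which 42.7% of all genes tested met. By this limit 31 of the 37 were called. Of these 30 fell, against 19.5% of all genes tested, and 1 rose, PMS2, against 23.3% of all genes tested. The other 6, RAD50, RAD51D, FANCF, FANCL, ATR and MSH6, did not pass. Of the members that fell, 24 did so by at least 2-fold and 8 by at least 4-fold. Among all genes tested, whatever the adjusted p, 12.5% had a lower log2 fold change than FANCE (-1.01), the smallest fall of the 24. For BLM (-2.05), the smallest fall of the 8, this share was 4.3%. The median log2 fold change over the 37 was -1.16, beside 0.01 over all genes tested. Among 9888 protein-coding genes in the same range of mean level (5.52 to 560 CPM), 21.3% fell, 16.6% rose and the median was -0.09. The groups did not overlap for 33 members that were lower in LNCaP-enzaR, against 35.0% of all genes tested, and for FANCL and PMS2, which were higher, against 35.6%. The ranges of RAD50 and ATR overlapped. Because the members were chosen with earlier results of these data known, these shares are not independent of that choice. Among 57 other tested genes of the 3 pathways, 22 fell and 9 rose, with a median of -0.40.

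**Figure D1:**
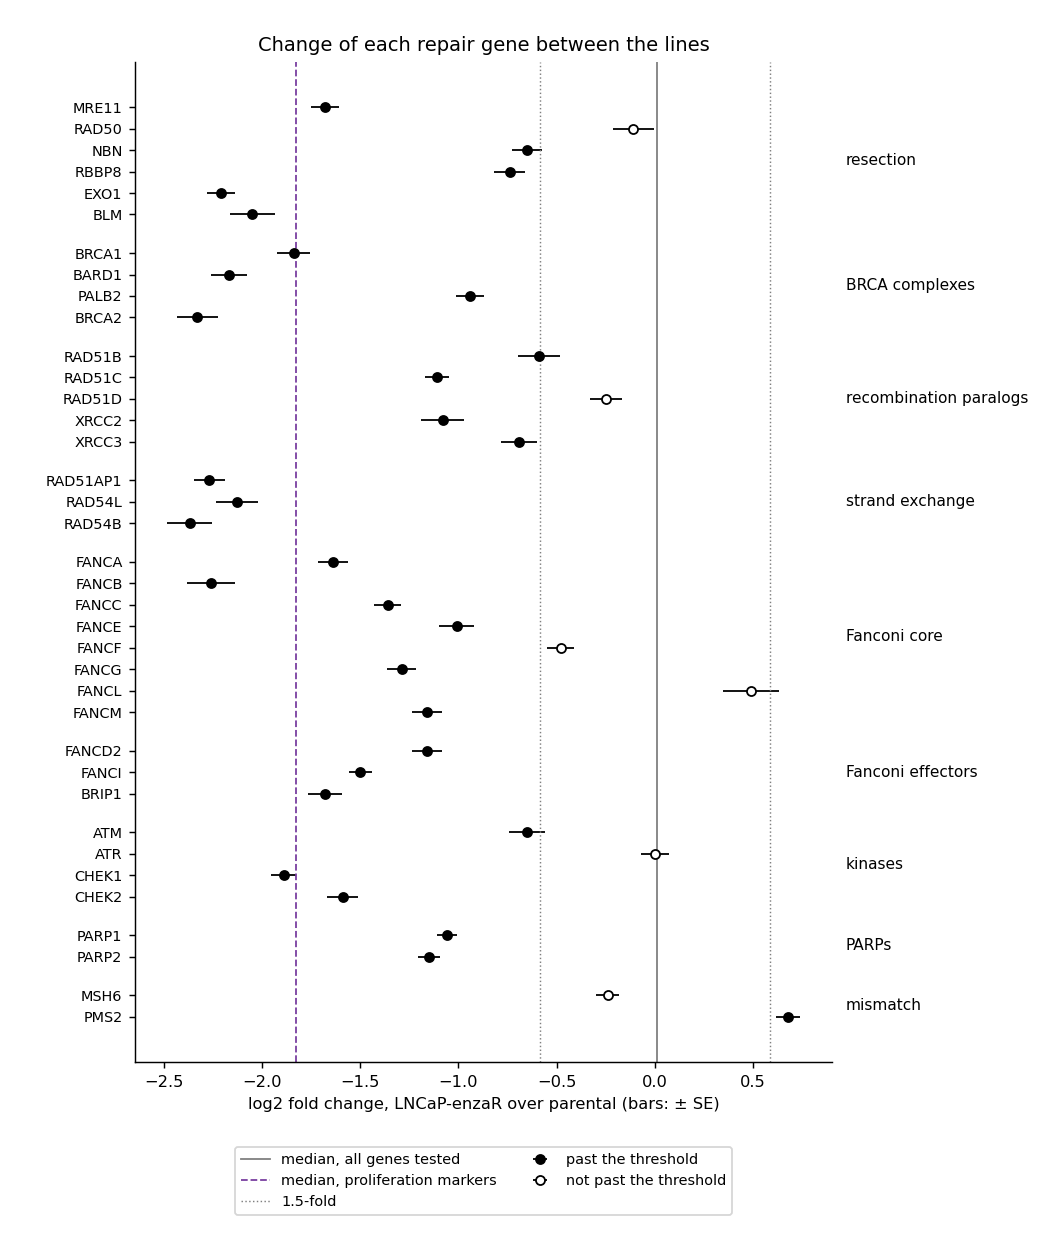
Log2 fold change (LNCaP-enzaR over parental, with its standard error) of each of the 37 repair genes, grouped by role, with filled points for genes past the threshold. Apart from PMS2 and FANCL, the points lie at or to the left of 0, and RAD54B lies lowest at -2.37.

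The members differed widely in level. Per kilobase of the canonical transcript, PARP1 had the highest level of the 37 in both lines, at 190 and 91.3 RPKM (CPM divided by transcript length in kilobases). BRCA2, whose transcript is long, was at 3.18 RPKM in parental and 0.632 RPKM in LNCaP-enzaR cells. Summed over the members, the level was 2350 to 2400 CPM in the parental libraries and 1100 to 1160 CPM in the LNCaP-enzaR libraries. The spread between libraries of a line was small beside these differences. The SD was 3.96% of the mean for the median member in parental cells and 8.45% in LNCaP-enzaR cells, with 6.91% and 10.2% for the median gene of all tested.

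**Figure D2:**
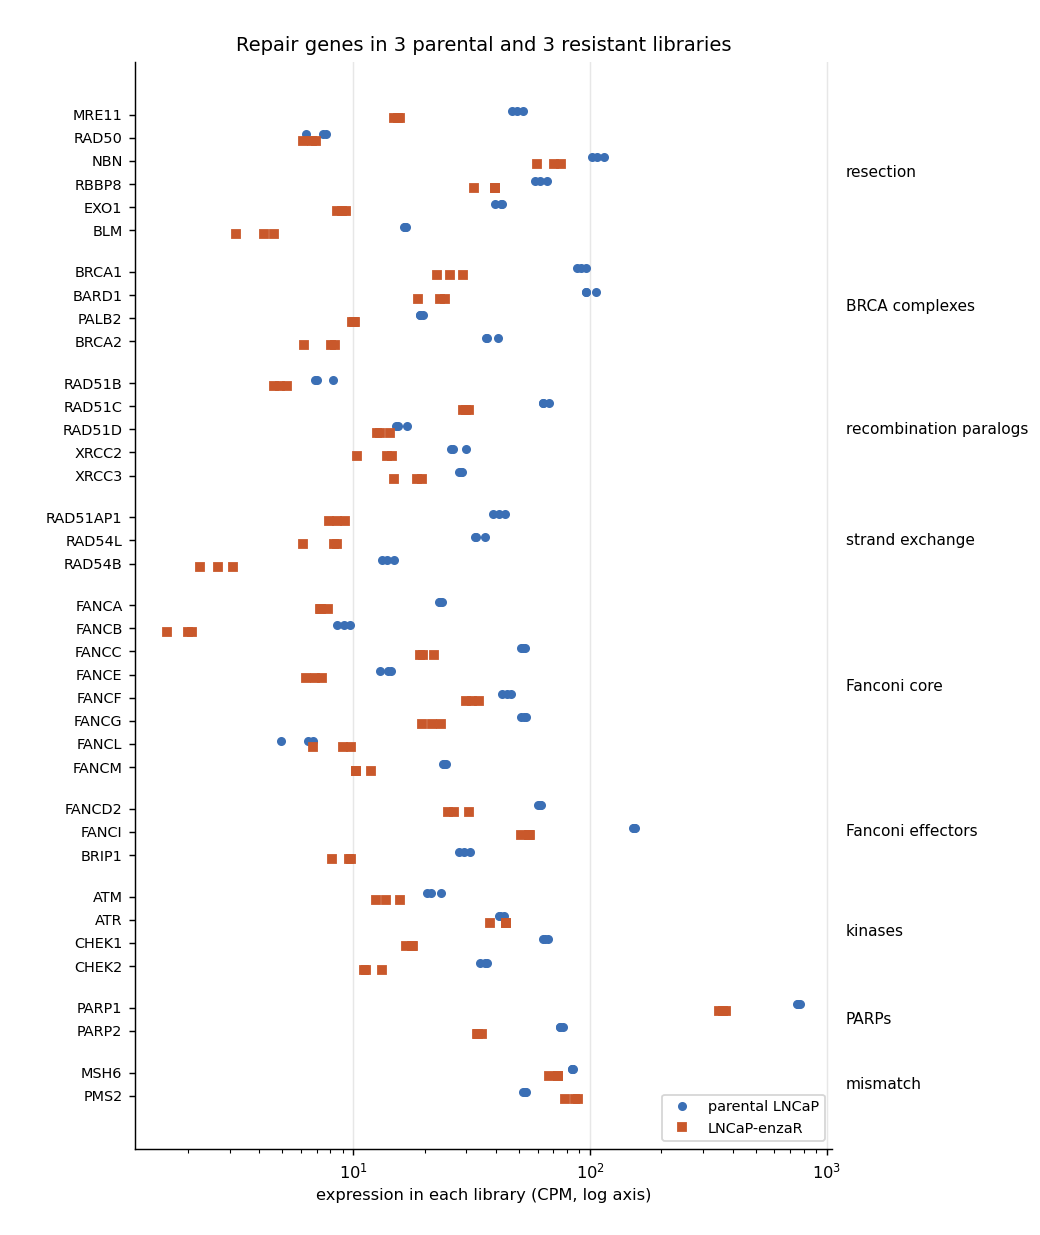
Level of each member in every library, in CPM on a log axis, with parental and LNCaP-enzaR libraries in different colours. The libraries of a line lie close together, and the groups overlap for RAD50 and ATR.

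Start regions of these genes were inspected because many genes of the S phase program carry binding motifs of E2F transcription factors, which drive entry into S phase. Windows of 300 bases, from 250 before to 50 after the annotated start, were taken from RefSeq (GRCh38.p14) for the 34 members that matched by symbol. NBN, RAD54B and FANCI did not match. Each gene had a single window. The start used for BRCA1 lies outside its coordinates in the count table. Those for RAD51B, CHEK1, RBBP8, FANCC and MSH6, among others, lie inside theirs rather than at the edge. A motif at another start would be missed. The core motif was searched on both strands as the word TTCCCGC, its variant TTCGCGC, a further word TTGCCGC and its variant TTGGCGC. It was present in 20 of 34 member windows (58.8%) and in 13.1% of 27305 windows of all genes. The windows of all genes include genes that were not tested here. Among genes tested with a window, 2423 held the core and 9817 did not. The CCAAT box, searched on both strands as CCAAT, was present in 15 of 34 (44.1%) and in 35.7% of all windows. The cell cycle homology region, searched on both strands as TTTGAA and, in its variant form, as TTTAAA, was in 5 of 34 (14.7%) and in 24.3% of all windows. These sequences show the 250 bases before the start of 4 members, 5′ to 3′ on the strand of the gene, with the E2F core in capitals. BLM and FANCG fell and hold the core, FANCB fell and does not hold it, and PMS2 rose and holds it.
BLM: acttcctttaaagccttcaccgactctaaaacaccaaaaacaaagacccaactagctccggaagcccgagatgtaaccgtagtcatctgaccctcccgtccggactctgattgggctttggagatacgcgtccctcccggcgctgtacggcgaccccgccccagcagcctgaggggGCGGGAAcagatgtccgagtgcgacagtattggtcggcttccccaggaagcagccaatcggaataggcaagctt
FANCG: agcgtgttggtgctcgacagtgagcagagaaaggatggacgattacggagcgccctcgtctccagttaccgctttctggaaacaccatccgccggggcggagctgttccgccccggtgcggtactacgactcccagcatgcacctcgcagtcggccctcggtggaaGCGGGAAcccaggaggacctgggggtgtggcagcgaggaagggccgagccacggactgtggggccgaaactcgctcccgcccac
FANCB: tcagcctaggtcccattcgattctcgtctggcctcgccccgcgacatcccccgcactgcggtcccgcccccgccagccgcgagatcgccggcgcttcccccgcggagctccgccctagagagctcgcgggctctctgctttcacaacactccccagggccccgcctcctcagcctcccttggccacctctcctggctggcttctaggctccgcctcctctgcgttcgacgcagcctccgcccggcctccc
PMS2: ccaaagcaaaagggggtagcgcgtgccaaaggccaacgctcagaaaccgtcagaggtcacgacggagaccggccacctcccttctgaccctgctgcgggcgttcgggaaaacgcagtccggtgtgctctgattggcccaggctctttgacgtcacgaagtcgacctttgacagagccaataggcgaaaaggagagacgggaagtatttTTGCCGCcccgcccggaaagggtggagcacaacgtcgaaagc

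The BLM stretch lies at chr15:90717096-90717345 on the plus strand, and its core begins 74 bases before the start. BLM was the member with the most cores, 3 in the window, of which the other two lie after the start. The FANCG stretch lies at chr9:35079943-35080192 on the minus strand, with the core 84 bases before the start. The FANCB stretch lies at chrX:14873070-14873319 on the minus strand, and none of the core words is in its window. The PMS2 stretch lies at chr7:6009107-6009356 on the minus strand, with the core 42 bases before the start. Cores at other starts were not searched, so members counted as without the core may hold it elsewhere, BRCA1, CHEK1 and RBBP8 among them. Whether the core goes with the change was not tested. The median log2 fold change was -1.15 for the 20 members with the core (range -2.27 to 0.68) and -1.14 for the 14 without it (range -2.33 to 0.00). Over all genes tested with a window, the median was -0.15 for 2423 genes with the core, of which 25.6% fell, and 0.01 for 9817 without it, of which 19.8% fell. The motif is a description of the letters in these windows and shows no binding.

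All 4 genes of the BRCA complexes fell, with a median log2 fold change of -2.01. BRCA1 and BARD1 form the heterodimeric ubiquitin ligase that acts at breaks, PALB2 bridges BRCA1 to BRCA2, and BRCA2 prepares resected ends for strand exchange. BRCA1 (chr17:43044295-43170245) was at 96.3, 87.8 and 91.7 CPM in the parental libraries and at 22.6, 25.5 and 28.9 CPM in the LNCaP-enzaR libraries. This was 3.58-fold lower, with a log2 fold change (log2FC) of -1.84 ± 0.083 (SE here and for each log2FC below, adjusted p = 1.07e-10). BARD1 (chr2:214725646-214809683) was at 106, 96.2 and 95.8 CPM against 18.7, 23.2 and 24.3 CPM. It fell by 4.5-fold (log2FC -2.17 ± 0.090, adjusted p = 4.74e-11). BRCA2 (chr13:32315086-32400268) was at 41.0, 36.8 and 36.4 CPM against 6.20, 8.38 and 8.07 CPM. Each LNCaP-enzaR library was far below each parental library, and the level fell by 5.04-fold (log2FC -2.33 ± 0.103, adjusted p = 9.37e-11). PALB2 (chr16:23603160-23641310) had the smallest fold change of the 4, from 19.3 ± 0.307 to 10.04 ± 0.133 CPM (log2FC -0.94 ± 0.072, adjusted p = 3.34e-08).

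Of the 6 genes that sense and resect ends or dissolve recombination intermediates, 5 fell and RAD50 did not pass, with a median of -1.21. EXO1, the long-range resection exonuclease that also acts in mismatch repair (chr1:241847967-241895148), was at 42.0, 42.6 and 39.6 CPM in parental and 8.56, 8.97 and 9.32 CPM in LNCaP-enzaR cells. The groups were far apart, with a log2FC of -2.21 ± 0.072 (adjusted p = 4.00e-12). BLM, the RecQ helicase mutated in Bloom syndrome (chr15:90717346-90816166), was at 16.3, 16.7 and 16.5 CPM against 3.19, 4.18 and 4.61 CPM. Its log2FC was -2.05 ± 0.115 (adjusted p = 1.19e-09). RBBP8, which encodes the resection cofactor CtIP (chr18:22798261-23026488), fell less, from 61.9 ± 3.50 to 37.2 ± 4.17 CPM (log2FC -0.74 ± 0.081, adjusted p = 1.64e-06).

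The 3 subunits of the break-sensing MRN complex had unequal fold changes. MRE11, the nuclease (chr11:94415570-94493885), was at 51.9, 49.2 and 46.6 CPM in parental and at 14.8, 15.4 and 15.8 CPM in LNCaP-enzaR cells. It fell with a log2FC of -1.68 ± 0.069 (adjusted p = 4.14e-11). NBN, the subunit that recruits ATM (chr8:89933331-90003228), was at 114, 107 and 102 CPM against 59.9, 75.2 and 70.2 CPM. Its fall was smaller (log2FC -0.65 ± 0.078, adjusted p = 4.13e-06), and without LNCaP-enzaR library 1, the lowest of the 3, it was -0.56 and no longer past the fold limit. RAD50, the ATPase that tethers ends (chr5:132556019-132646349), was at 7.45, 6.28 and 7.66 CPM against 6.94, 6.71 and 6.13 CPM. These ranges overlapped (log2FC -0.11 ± 0.105, adjusted p = 0.365). Of the exonic bases of RAD50, 76.9% lie in exons of other annotated genes, so its low count is uncertain.

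The 3 genes that assist strand exchange fell, with a median of -2.27, the lowest of the 9 roles. RAD51AP1, which stimulates strand exchange (chr12:4538798-4560047), was at 43.5, 41.2 and 38.9 CPM in parental and 7.87, 8.55 and 9.21 CPM in LNCaP-enzaR cells (log2FC -2.27 ± 0.080, adjusted p = 9.04e-12). RAD54L, a DNA translocase (chr1:46246461-46278480), was at 35.8, 32.8 and 32.5 CPM against 8.53, 6.15 and 8.31 CPM (log2FC -2.13 ± 0.107, adjusted p = 3.61e-10). Its relative RAD54B (chr8:94371960-94475115) was at 13.9, 14.8 and 13.2 CPM against 2.25, 2.69 and 3.11 CPM. In all 3 genes every LNCaP-enzaR library was below every parental library. RAD54B had the lowest log2 fold change of the 37 members, at -2.37 (SE 0.116, adjusted p = 2.77e-10), and 3.24% of the genes tested had a lower one. Of its exonic bases, 66.0% lie in exons of FSBP. The counts of FSBP were 2046, 1736 and 1525 in parental and 295, 368 and 399 in LNCaP-enzaR libraries. The value of RAD54B cannot be separated from that of FSBP here.

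Of the 5 recombination paralogs, which form complexes that assist strand exchange, 4 fell, with a median of -0.69. RAD51C (chr17:58692573-58735611) fell from 64.3 ± 2.27 to 29.8 ± 0.898 CPM (log2FC -1.11 ± 0.061, adjusted p = 9.37e-10). XRCC2 (chr7:152644776-152676141) fell from 27.4 ± 2.19 to 12.9 ± 2.20 CPM (log2FC -1.08 ± 0.109, adjusted p = 6.71e-07). The fold changes of these 2 paralogs were larger than those of the other 3. XRCC3 (chr14:103697609-103715504) was at 28.6, 28.8 and 28.0 CPM against 19.4, 14.8 and 18.6 CPM, a log2FC of -0.69 ± 0.091 (adjusted p = 1.05e-05). Without LNCaP-enzaR library 2, the lowest, it was -0.58 and missed the fold limit, and 76.7% of its exonic bases lie in exons of KLC1. RAD51B (chr14:67819779-68730218) was at 6.88, 8.22 and 7.03 CPM against 4.61, 5.22 and 4.88 CPM. Its log2FC of -0.59 ± 0.107 (adjusted p = 2.16e-04) was close to the fold limit and missed it under 8 of 14 alternatives. RAD51D (chr17:35092221-35121522) was at 15.4, 16.9 and 15.1 CPM against 12.9, 12.6 and 14.3 CPM. It did not pass (log2FC -0.25 ± 0.082, adjusted p = 0.014), although the groups did not overlap.

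In the Fanconi core complex, the ubiquitin ligase that senses crosslinks with the anchor FANCM, 6 of 8 genes fell, with a median of -1.22. FANCB, an X-linked core subunit (chrX:14835961-14873069), had the lowest log2FC of the complex, from 9.72, 8.52 and 9.14 CPM to 1.63, 2.08 and 2.01 CPM (log2FC -2.26 ± 0.121, adjusted p = 6.99e-10). FANCA (chr16:89737549-89816657), the core subunit most often mutated in Fanconi anemia, was at 23.1, 23.6 and 23.2 CPM against 7.23, 7.84 and 7.29 CPM (log2FC -1.64 ± 0.075, adjusted p = 1.27e-10). In both genes the libraries of each line lay close together and the lines far apart. Falls of -1.36 for FANCC (chr9:95099054-95426796), -1.29 for FANCG (chr9:35073835-35079942) and -1.01 for FANCE (chr6:35452338-35467102) were measured for other core subunits, and of -1.16 for the translocase FANCM (chr14:45135930-45200890). FANCF (chr11:22622533-22625823), an adaptor of the complex, was at 42.6, 46.1 and 44.7 CPM against 29.8, 34.0 and 31.8 CPM, which at 1.39-fold lower was below the fold limit (log2FC -0.48 ± 0.068, adjusted p = 2.15e-05). FANCL, the catalytic ligase subunit (chr2:58159243-58241372), was at 6.76, 6.42 and 4.95 CPM against 6.77, 9.78 and 9.0 CPM. LNCaP-enzaR library 1 nearly met the highest parental library, and the log2FC of 0.49 ± 0.143 (adjusted p = 0.00735) did not pass. Without that library it was 0.64 and passed.

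The 3 effectors fell, with a median of -1.50. FANCD2 and FANCI are the pair that receives ubiquitin. FANCI (chr15:89243945-89317261) was at 152, 154 and 153 CPM in parental and 51.2, 55.7 and 55.3 CPM in LNCaP-enzaR cells (log2FC -1.50 ± 0.057, adjusted p = 1.79e-11). FANCD2 (chr3:10026370-10101932) was at 62.2, 61.4 and 60.3 CPM against 25.1, 26.7 and 30.8 CPM (log2FC -1.16 ± 0.075, adjusted p = 5.61e-09). The parental libraries were nearly alike for both, and the LNCaP-enzaR libraries lay well below them. BRIP1, the helicase partner of BRCA1 (chr17:61679139-61863559), fell from 29.4 ± 1.55 to 9.17 ± 0.908 CPM (log2FC -1.68 ± 0.086, adjusted p = 4.08e-10).

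Of the 4 checkpoint kinases, 3 fell, and the fold changes of the 2 effector kinases were larger than those of the 2 apical ones. CHEK1, which restrains the cell cycle under replication stress (chr11:125625163-125676255), was at 66.3, 64.5 and 63.3 CPM against 16.7, 17.6 and 17.8 CPM, a 3.72-fold fall (log2FC -1.89 ± 0.063, adjusted p = 5.06e-12). CHEK2, which acts after double-strand breaks (chr22:28687743-28742422), was at 36.6, 36.0 and 34.4 CPM against 11.3, 11.1 and 13.2 CPM (log2FC -1.59 ± 0.080, adjusted p = 3.85e-10). Both were far below the parental range in every LNCaP-enzaR library. ATM, the apical kinase of double-strand breaks (chr11:108223044-108369102), was at 23.5, 20.5 and 21.3 CPM against 12.4, 13.7 and 15.7 CPM (log2FC -0.65 ± 0.092, adjusted p = 2.32e-05). Leaving out LNCaP-enzaR library 1 gave -0.56, below the fold limit. ATR, the apical kinase of stalled forks (chr3:142449007-142578733), was at 43.2, 41.1 and 41.8 CPM against 37.7, 44 and 43.9 CPM. Its ranges overlapped (log2FC 0.00 ± 0.071, adjusted p = 0.965), and the sign turned under 7 of 14 alternatives.

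Both poly(ADP-ribose) polymerases fell, with a median of -1.10. These enzymes mark single-strand breaks and are the targets of PARP inhibitors. PARP1 (chr1:226360210-226408154) was at 746, 755 and 772 CPM in parental and 375, 364 and 350 CPM in LNCaP-enzaR cells, 2.09-fold lower (log2FC -1.06 ± 0.051, adjusted p = 2.27e-10). PARP2 (chr14:20343615-20357904) was at 76.8, 74.7 and 74.8 CPM against 33.7, 33.4 and 35.0 CPM (log2FC -1.15 ± 0.058, adjusted p = 3.53e-10). The lines were separated in both genes by many times the spread between libraries of a line.

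Neither of the mismatch repair members fell past the threshold. MSH6, a subunit of the complex that recognizes base mismatches (chr2:47695530-47810063), was at 83.9, 83.9 and 84.3 CPM in parental and 67.0, 72.8 and 73.2 CPM in LNCaP-enzaR cells. The groups did not overlap, but the log2FC of -0.24 ± 0.057 (adjusted p = 0.00177) was below the fold limit. PMS2, the endonuclease subunit that nicks the new strand (chr7:5970925-6009106), was at 53.6, 52.2 and 53.0 CPM against 78.4, 86.6 and 88.6 CPM. It rose by 1.60-fold (log2FC 0.68 ± 0.062, adjusted p = 2.29e-07). LNCaP is known to carry a mismatch repair defect, and transcript counts of MSH6 and PMS2 do not measure protein or repair activity. PMS2 has many near-identical pseudogene copies, so its value is uncertain. The 11 rows of such copies in the table summed to 3137, 3013 and 2879 counts in parental and 3597, 3529 and 3992 counts in LNCaP-enzaR libraries. Of the exonic bases of MSH6, 24.2% lie in exons of another gene, mainly FBXO11, which was at 30.9 ± 0.756 CPM in parental and 42.65 ± 2.7 CPM in LNCaP-enzaR cells (log2 fold change 0.47, not past the threshold).

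The balance between genes whose products act together was also compared. Per-library ratios per kilobase, which do not depend on library scaling, were compared for 10 pairs by a two-sided exact permutation test with Benjamini-Hochberg adjustment. With 3 libraries against 3 the smallest p this test can give is 0.1, so no pair could pass 0.05, and the exact p was 0.1 (adjusted p = 0.111) for 9 of the 10. In these 9 the groups did not overlap. CHEK1 relative to ATR moved most, from a log2 ratio of 1.61 ± 0.026 to -0.28 ± 0.080. Which of these genes was higher in LNCaP-enzaR cells depended on the length used, with CHEK1 at 4.21 and ATR at 5.14 RPKM by canonical transcript but 3.11 and 1.54 RPKM by all exonic bases, whereas the change in the ratio does not depend on it. BRCA2 relative to PALB2 went from -0.60 ± 0.106 to -2.0 ± 0.220. NBN relative to MRE11 went from 1.69 ± 0.007 to 2.72 ± 0.135, and RAD50 relative to MRE11 from -3.07 ± 0.182 to -1.49 ± 0.143. CHEK2 relative to ATM went from 3.52 ± 0.087 to 2.58 ± 0.087. FANCD2 relative to FANCI moved by 0.34 and BRCA1 relative to BARD1 by 0.33, both upwards. The ratio of XRCC2 to RAD51D went from 1.85 ± 0.159 to 1.01 ± 0.254. For XRCC3 relative to RAD51C the ratio moved by 0.41, from -1.18 ± 0.049 to -0.77 ± 0.179. Of the exonic bases of RAD50 and XRCC3, 76.9% and 76.7% lie in exons of other genes. The ratios RAD50/MRE11 and XRCC3/RAD51C are therefore uncertain. The ratio of PARP1 to PARP2, at 2.21 ± 0.045 and 2.29 ± 0.081, overlapped between the lines (difference 0.09, exact permutation p = 0.3, adjusted p = 0.3).

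**Figure D3:**
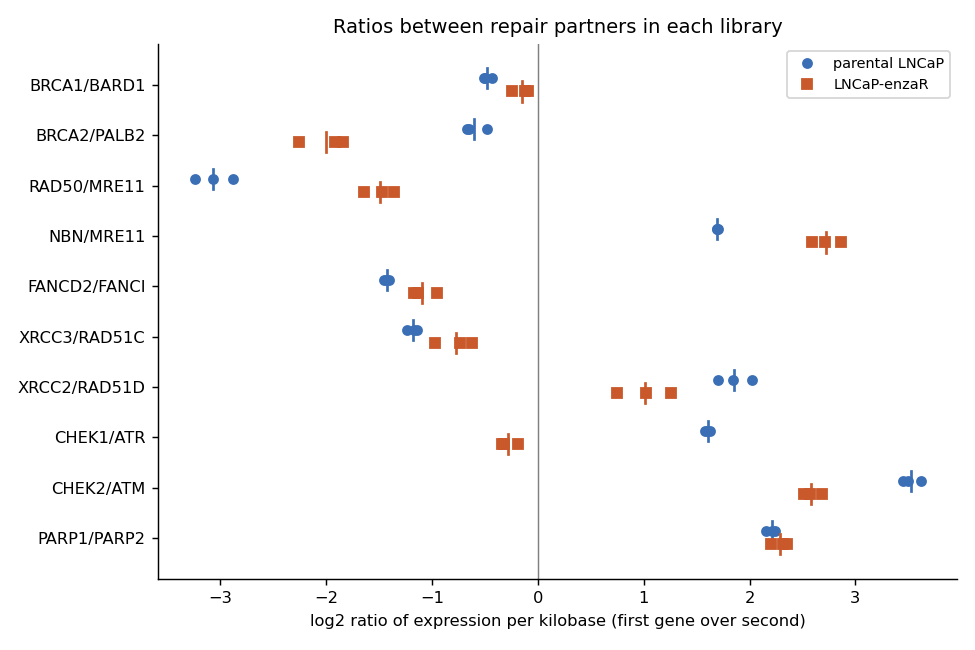
Per-library log2 ratio of counts per kilobase between partners, in parental and LNCaP-enzaR libraries, with canonical transcript lengths, on which the position relative to 0 depends but the distance between the lines does not. CHEK1/ATR goes from 1.61 to -0.28, and PARP1/PARP2 is the pair whose libraries overlap.

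Other genes of the 3 pathways, from lists of recombination, Fanconi and mismatch genes, moved in both directions. Of 57 tested, 22 fell, 9 rose and 26 did not pass, with a median log2 fold change of -0.40. Of all genes tested, 19.5% fell and 23.3% rose. Among the recombination genes 11 of 32 fell and 4 rose. DNA2, a resection nuclease, fell from 32.4 ± 1.41 to 6.50 ± 0.998 CPM, and the helicase MCM8 had a log2 fold change of -1.73. BABAM2, of the BRCA1-A complex, rose from 28.4 ± 1.31 to 59.45 ± 1.87 CPM and SWI5, a recombination mediator, from 31.4 ± 0.869 to 59.85 ± 10.9 CPM. Among the Fanconi genes 7 of 15 fell and 4 rose. The conjugating enzyme UBE2T fell from 93.5 ± 1.41 to 28.35 ± 1.33 CPM, and the translesion polymerase REV1 had a log2 fold change of -1.20. The nuclease FAN1 rose from 74.5 ± 3.04 to 124.8 ± 5.58 CPM and the core-associated FAAP20 from 61.55 ± 1.95 to 112.1 ± 10.3 CPM. Among the mismatch genes 4 of 10 fell and 1 rose. Of the subunits of polymerase delta, POLD3 and POLD1 fell, with log2 fold changes of -1.57 and -1.29, and POLD4 rose from 5.11 ± 0.197 to 11.5 ± 2.23 CPM.

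**Figure D4:**
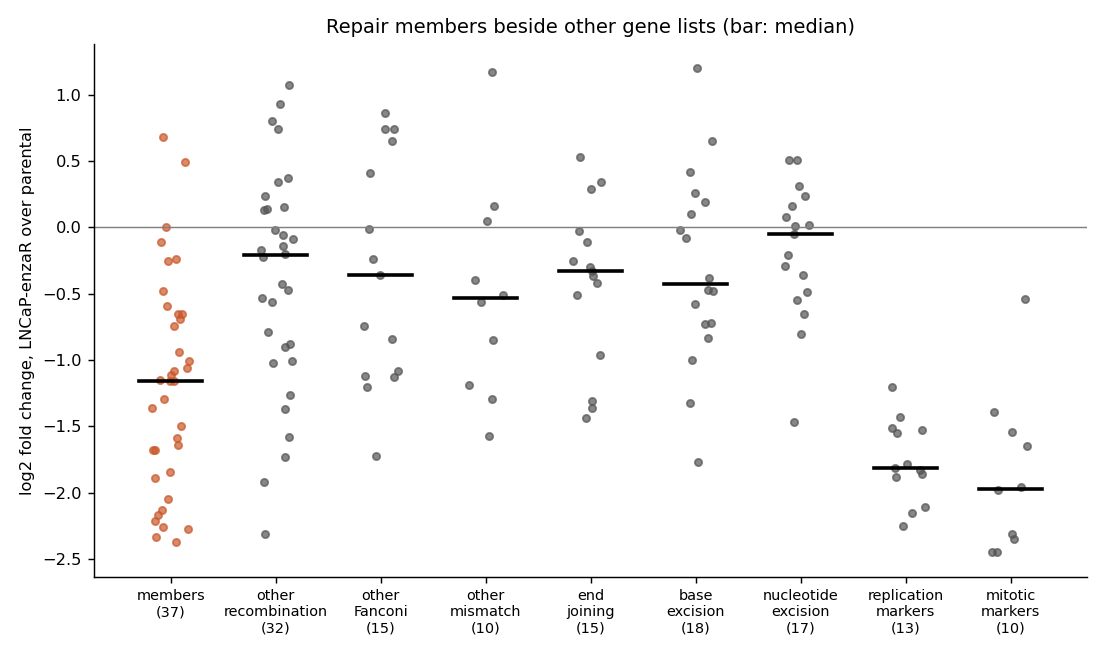
Log2 fold changes of the genes of each list, for the members pooled in a single column, other genes of the pathways, other repair pathways and proliferation markers, with medians. The 13 replication markers lie between -2.25 and -1.20, and the genes of nucleotide excision repair have a median of -0.05.

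The genomic neighbourhood of the members was described as a further comparison that was chosen after the data were seen. For each member the median log2 fold change was taken over the genes within 5 Mb that had a mean of at least 1 CPM, which were 17 to 170 genes. The members were below that median in 34 of 37 cases and below it by at least 1 in 22, and the median difference was -1.22. The same count was not made over all genes tested. As 35 of the 37 members had a log2 fold change below 0, these counts largely repeat their fall. The local medians ranged from -0.86 around MRE11 to 0.43 around FANCL, and 7 members had a local median of -0.4 or lower. BRCA2 (-0.72 around it), FANCF (-0.69), BARD1 (-0.54), ATM (-0.48), CHEK1 (-0.47) and EXO1 (-0.44) were the others. FANCF, PMS2 and FANCL were above the genes around them, FANCF by 0.21 and PMS2 by 0.58. DNA copy number was not analysed here.

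**Figure D5:**
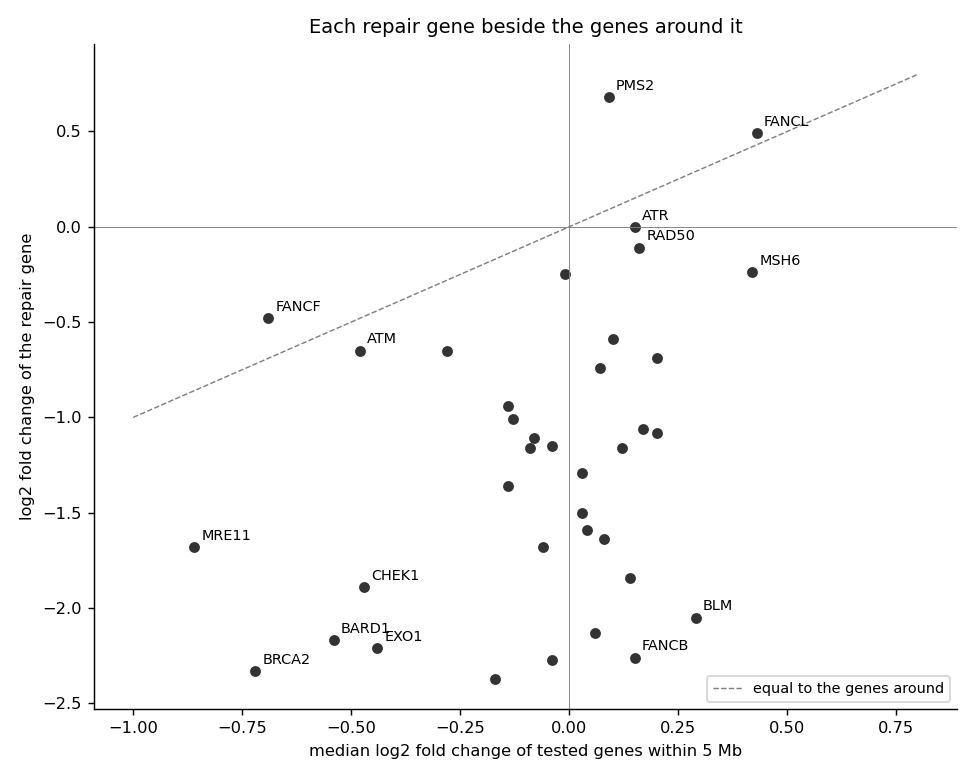
Log2 fold change of each member against the median log2 fold change of the genes within 5 Mb of it. Most points lie below the line of equality, and MRE11 has the lowest local median, at -0.86.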

How the data were processed

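RNA sequencing of 6 libraries, 3 parental LNCaP and 3 LNCaP-enzaR, was analysed. According to the labels and methods, the authors prepared polyadenylated RNA libraries, trimmed reads with Cutadapt, aligned them to GRCh38.p13 with STAR and counted per gene with featureCounts, and deposited raw counts, not normalized. Strand setting, treatment of reads with several positions and the unit counted (read or fragment) are not given in the sources used here, so values of overlapping genes and of genes with copies are uncertain. The table held no columns of comparisons. Of its genes, 99.77% were found in GENCODE v44, which was used for strand, length and exon overlap only. Coordinates are those of the table.

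The lines were compared in R 4.3.3 with edgeR 4.0.16. filterByExpr kept 19711 genes with 99.96% of the counts, TMM scaled the libraries (77759122 to 98616465 counts), and a robust quasi-likelihood F-test with line as its sole term was used, with Benjamini-Hochberg adjustment over all genes tested. CPM are counts per 1000000 of the TMM-scaled library, given as mean ± SD, and log2 fold changes are LNCaP-enzaR over parental. Genes were called where the adjusted p did not exceed 0.05 and the fold was 1.5 or more, the limits of the study's methods, which name DESeq2. DESeq2 1.42.0, other scalings, other filters, a replicate block, leaving out each library and other limits were alternatives. The test was tested on simulated data. Members, lists and tests were chosen with earlier results of these data known. Named genes were the 37 members, the 2 highest and 2 lowest past the threshold in each other list with a mean of at least 5 CPM, MKI67, PCNA, and genes within 500 kb of MSH6. Some genes that this rule selects are not reported here.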

Additional observations from a re-analysis of the deposited data

How the results depend on the processing

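Of the 37 members, 31 kept their call and direction under all 14 alternatives of scaling, filter, tool, gene set, pairing and left-out library. The number past the threshold was 29 to 31 under these, and leaving out each library gave 29 to 31 members, 8372 to 8517 genes and a member median of -1.17 to -1.12. Under upper-quartile scaling the member median was -1.05, with 27 members lower and 2 higher. That scaling moved the median of all genes by 0.101 on the log2 scale, and the higher share of calls from 54.5% to 60.9%. RAD51B missed the fold limit under 8 alternatives (-0.64 to -0.49 over all). Under upper-quartile scaling NBN (-0.55) and ATM (-0.55) missed it and FANCL (0.59) passed it. ATR turned sign, with log2 fold changes of 0.0063 with DESeq2 and with RLE factors, 0.097 with upper-quartile scaling, 0.018 with at least 10 counts in every library, 0.019 with protein-coding genes only and -0.038 to 0.073 when libraries were left out in turn. With no minimum fold 13074 genes and 35 members passed, and at a fold of at least 2 there were 5561 genes and 24 members. Same-numbered libraries did not deviate together (correlations -0.211 to 0.00849, with 1 of 6 libraries correlating best with its own number), so the numbers did not pair them. Under a replicate block 8212 genes and 31 members passed, against 8425 and 31 without it. The 10 ratios between partners kept their direction with each library left out. Depth did not limit the members, whose lowest count was 141.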

Other observations

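Other repair pathways were counted in the same way. Of 50 tested genes of end joining, base excision and nucleotide excision repair, 13 fell, 2 rose and 35 did not pass, with a median log2 fold change of -0.30, while 19.5% of all genes tested fell and 23.3% rose. In end joining 4 of 15 fell and none rose. The Ku subunit gene XRCC5 went from 581 ± 3.53 to 226 ± 6.26 CPM, and RIF1, which protects ends from resection, had a log2 fold change of -1.31. In base excision repair 6 of 18 fell and 2 rose. The glycosylase genes NEIL3 and TDG had log2 fold changes of -1.77 and -1.32, and NEIL2 had 0.65. In nucleotide excision repair 3 of 17 fell, among them DDB2, a damage sensor (-1.47), and GTF2H1, of the TFIIH complex (-0.80).

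Within LNCaP-enzaR, library 1 was the lowest of the 3 for 25 of the 37 members and library 3 the highest for 20. Over all genes library 1 was the lowest for 39.4% and the highest for 40.2%, and library 3 was the highest for 27.2%. For the 23 proliferation markers library 1 was the lowest for 9 and the highest for 8, library 2 the lowest for 10, and library 3 the highest for 11.

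Among genes within 500 kb of MSH6, BCYRN1, a noncoding RNA gene, rose from 76.15 ± 6.74 to 215.4 ± 36.7 CPM, and EPCAM, an epithelial adhesion gene, was at 94.8 ± 2.13 CPM in parental and 126.0 ± 6.18 CPM in LNCaP-enzaR cells (log2 fold change 0.41, not past the threshold). The median of the genes within 5 Mb of MSH6 was 0.42.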
